A study of Mus musculus with 6 samples.

Results

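The synaptic vesicle, SNARE and proton pump genes on this cDNA array comprised 68 genes, read by 92 probes, of 6146 named genes among 9685 measured features. They were taken by gene symbol from the platform annotation: every symbol starting with Syt and a digit, Stx, Vamp, Snap and a digit, Sv2, Cplx, Rims, Rab3, Napa, Napb, Napg, Ap2, Atp6v or Dnm and a digit, together with Syn1, Syn2, Syn3, Syp and Nsf. The prefixes also admit genes beyond the families they name. Rab31, Rab33a, Rab35, Rab36 and Rab3ip came through Rab3, and Stxbp2 and Stxbp6 through Stx. Snap91, the clathrin assembly protein AP180 of nerve terminals, came through Snap. All 68 genes met the filter, which asked for values from 2 or more arrays per strain, and 65 had a value on all 6 arrays.

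The tissue was brain, as total RNA, from male mice aged 9 weeks. NY1DD mice, a transgenic line that expresses human sickle globin chains, supplied 3 arrays (the labels give neither the globin alleles nor the background strain), and wild-type C57BL/6J mice supplied the other 3. Each array had 2 channels, with RNA collected 10 min after naloxone in Cy5 and RNA collected 10 min after saline, from the same strain, in Cy3. Naloxone is an opioid receptor antagonist, and the design compares its effect in the sickle and the wild-type brain.

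The dyes were never swapped, so a dye bias cannot be told apart from naloxone in either strain. The labels do not say whether replicate arrays came from separate animals, so p-values measure the spread between arrays, which may be technical. Each sample title includes an unexplained number. C57BL/6J replicates 1 and 2 have the same one and no number is common to both strains, so strain and batch cannot be told apart if it marks a batch. The deposited ratio does not name its numerator. It is read here as naloxone over saline, which is likely because the design text calls Cy5 the experimental channel, and the opposite reading would turn every sign below. A ratio gives no level, so the presence of neurons could not be checked by their markers, and in whole brain RNA fewer cells of a type and less RNA per cell cannot be told apart.

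Synaptic vesicles fuse with the presynaptic membrane when a vesicle SNARE of the VAMP family zips together with syntaxin and SNAP-25, with synaptotagmin as the calcium sensor and complexin as a clamp. The ATPase NSF, with its SNAP adaptors, takes the spent SNARE complex apart, while AP-2, clathrin and dynamin retrieve the membrane. The vacuolar proton pump, built of a membrane V0 sector and a cytoplasmic V1 sector, acidifies the emptied vesicle so that transporters can refill it with neurotransmitter. Opioid receptors couple to inhibitory G proteins and restrain transmitter release at many brain terminals, and naloxone blocks them.

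None of the 68 genes passed an adjusted p of 0.05 in limma for the mean log2 ratio in NY1DD or in C57BL/6J, for the NY1DD minus C57BL/6J difference, or for the average of the strains. The share of all 9685 features that passed was 0.0% in each of these 4 comparisons. The smallest adjusted p among the 68 genes was 0.535 in NY1DD, 0.287 in C57BL/6J, 0.969 for the difference and 0.246 for the average of the strains.

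At an unadjusted limma p under 0.05, 2 of the 68 genes passed in NY1DD, Syn1 and Atp6v0d1, against 8.35% of all features. In C57BL/6J 3 passed, Snap25, Vamp2 and Rab33a, against 6.93% of all features. Each of these was positive, where 3.46% of all features passed as positive and 4.89% as negative in NY1DD, and 1.76% and 5.17% in C57BL/6J. The strain difference had 1, Syt2, against 4.5% of all features (2.75% positive and 1.76% negative). The average of the strains had 5, namely Snap25, Vamp2, Syn1, Rab33a and Atp6v0d1, which is 7.35% of the 68 genes against 10.8% of all features. These 5 were positive, where 3.4% of all features passed as positive and 7.37% as negative. In each comparison the share of the 68 genes was below the share of all features, so the number of low p-values is no result about these genes. In the positive direction alone, the 5 genes of the average of the strains are 7.35% against 3.4%, a description without a test.

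The 68 genes had a small tilt towards positive ratios when set beside the other genes. In NY1DD 44 of them had a positive mean, 64.7%, against 47.5% of all features and 48.5% of the other 6078 genes. In C57BL/6J 48 had a positive mean, 70.6%, against 49.9% of all features and 50.8% of the other genes. Such shares were not particular to the 68 genes, since some short marker lists reached them. The 10 oligodendrocyte markers were 70.0% positive in each strain. The 16 neuron markers, which include Snap25 and Syt1, were 68.75% positive in NY1DD and 56.25% in C57BL/6J. Astrocyte markers were lower in NY1DD, at 14.3%, with 57.1% in C57BL/6J. The 66 other measured genes of vesicle release and recycling were nearer the other genes, at 51.5% in NY1DD and 56.1% in C57BL/6J. The median of the 68 means was 0.08 in NY1DD and 0.08 in C57BL/6J on the log2 scale, where the medians of the other genes were -0.01 and 0.003. The tilt was small beside the spread of a single gene: the median SD between arrays over the 68 genes was 0.27 in NY1DD and 0.21 in C57BL/6J. By array, the median over the genes was 0.07, 0.03 and 0.03 in NY1DD, and 0.11, -0.0014 and 0.14 in C57BL/6J. It was thus above 0 on 5 of 6 arrays, and the strains overlapped. Over the alternative settings the count of positive means ran from 38 to 48 in NY1DD and from 41 to 51 in C57BL/6J, and these counts and medians are descriptions without a test. Single arrays moved them: the NY1DD median was 0.049 without NY1DD replicate 2, and the C57BL/6J median was 0.052 without C57BL/6J replicate 3.

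**Figure D1:**
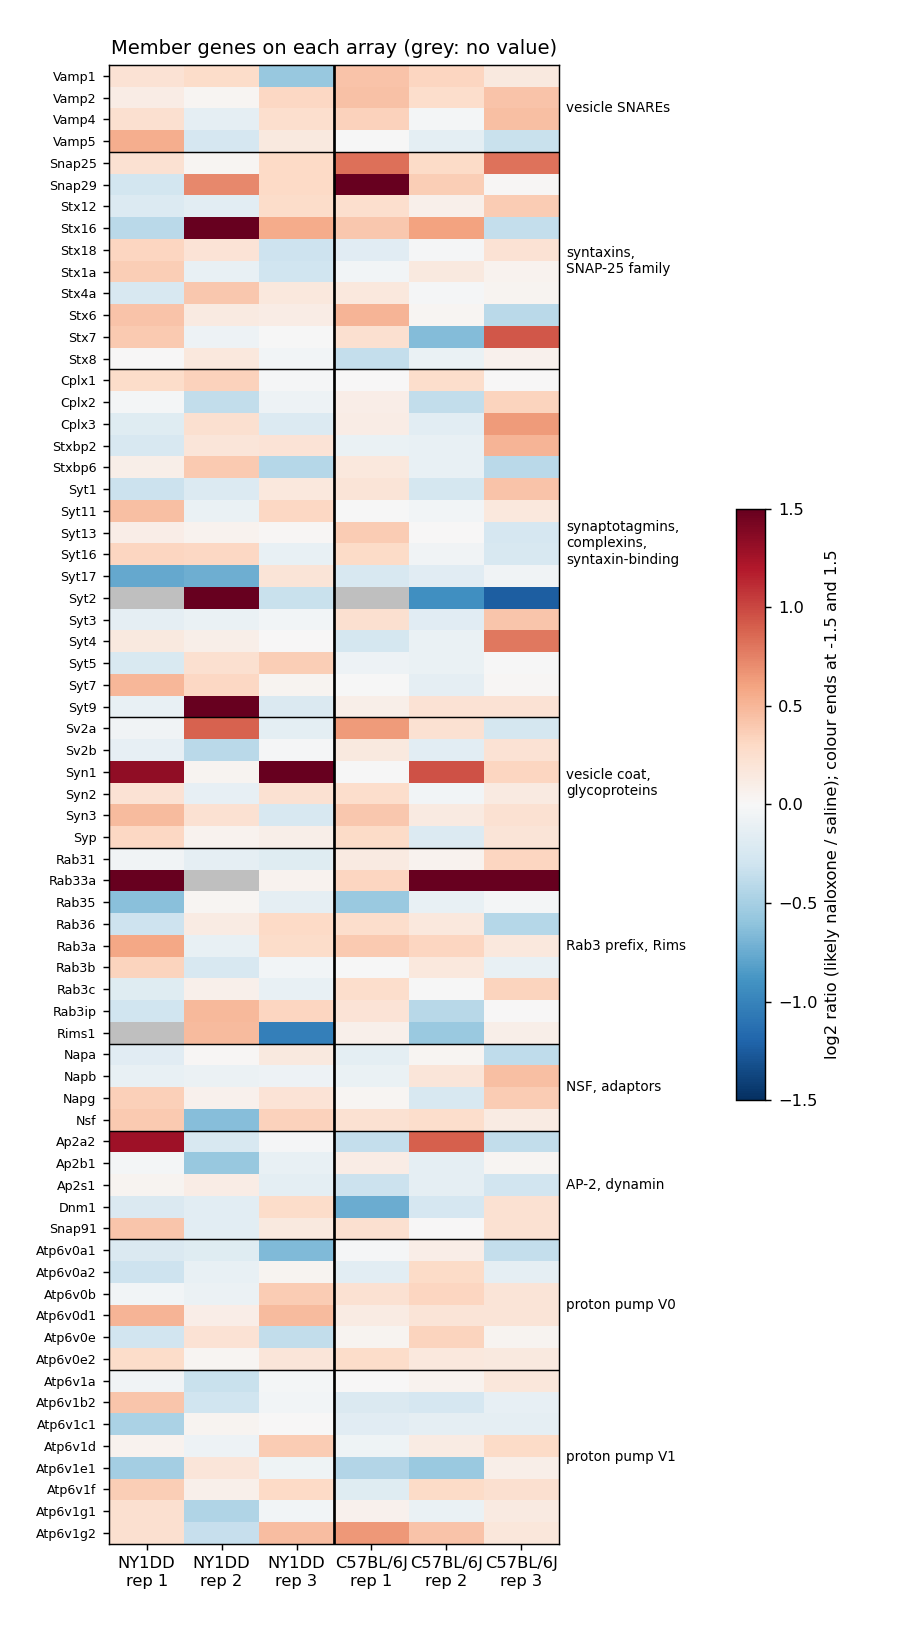
Log2 ratio (likely naloxone over saline) of each of the 68 genes on each array, with NY1DD arrays left of C57BL/6J arrays and genes grouped by role; red is above 0, blue below 0 and grey no value, and colours end at -1.5 and 1.5. The darkest red cells are single arrays of Rab33a, Syn1, Stx16, Syt9, Syt2 and Snap29, and most rows mix red and blue within a strain.

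Agreement of sign across arrays was limited. Values were positive on every NY1DD array for 13 genes, 19.1%, against 14.3% of all features, and on every C57BL/6J array for 19 genes, 27.9%, against 14.4% of all features. Negative values on every array occurred for 8 genes in NY1DD, against 15.4% of all features, and for 8 genes in C57BL/6J, against 17.3%. Positive values on every measured array of both strains were found for 5 genes, 7.35%, against 2.68% of all features: Snap25, Vamp2, Atp6v0d1, Atp6v0e2 and Rab33a. No gene was negative on every measured array of both strains, against 4.69% of all features. Rab33a had values on 5 arrays, because 1 NY1DD array gave none.

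Both strain means were positive for 33 genes, 48.5%, against 28.7% of the other genes, and both were negative for 9. The sign was positive in NY1DD and negative in C57BL/6J for 11 genes, and the reverse for 15. Across the 68 genes the NY1DD and C57BL/6J means had a Pearson r of 0.37 and a Spearman rho of 0.37, against 0.22 and 0.22 across the other genes. Without Rab33a the Pearson r was 0.16 and the Spearman rho 0.34. The genes share arrays, dyes and probe plates, and are not independent.

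**Figure D2:**
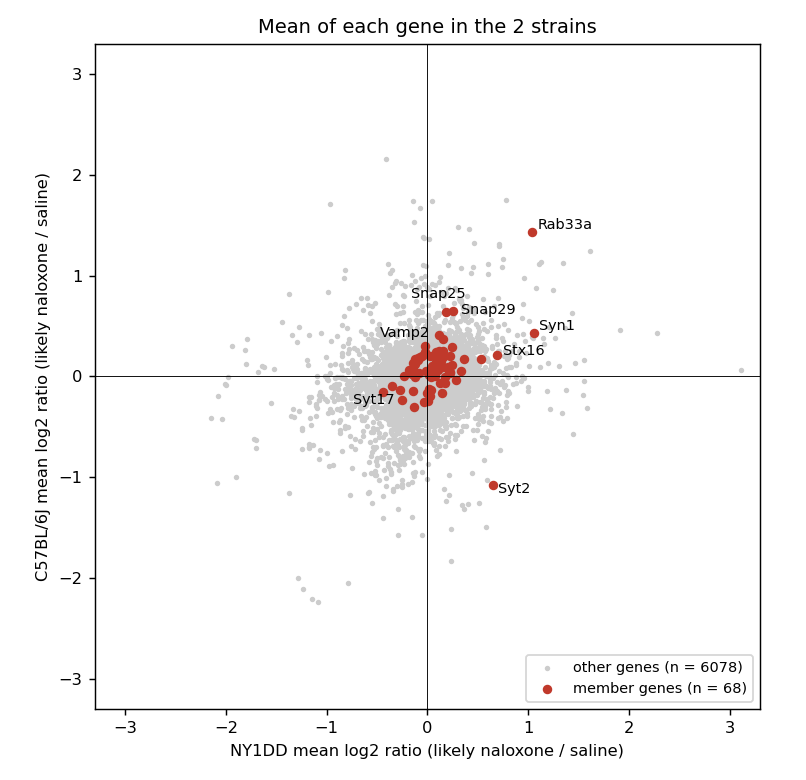
Mean log2 ratio (likely naloxone over saline) in NY1DD (horizontal) against C57BL/6J (vertical) for the 68 genes in red and the other 6078 genes in grey. Most of the 68 lie near the origin, with Rab33a at 1.04 and 1.44, Syn1 at 1.06 and 0.43, and Syt2 at 0.65 and -1.08 apart from the rest.

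Among the vesicle SNAREs, 3 of 4 genes had positive means in NY1DD (median 0.13) and 3 of 4 in C57BL/6J (median 0.28). The NY1DD median was 0.00073, with 2 of 4 genes positive, without NY1DD replicate 1, was 0.23 without NY1DD replicate 2, and was 0.04 with plate positions corrected. Vamp2 encodes synaptobrevin 2, the main vesicle SNARE of forebrain synapses. Its log2 ratios, from 1 probe only, were 0.11, 0.03 and 0.32 on the NY1DD arrays, against 0.44, 0.26 and 0.43 on the C57BL/6J arrays. All 6 values were above 0, and the NY1DD range overlapped the C57BL/6J range. The mean was 0.15 ± 0.13 (SE) in NY1DD and 0.37 ± 0.13 in C57BL/6J, and the C57BL/6J mean had an unadjusted p of 0.0251 and an adjusted p of 0.582 in limma. Vamp1, the synaptobrevin of spinal and hindbrain terminals, had 0.21, 0.27 and -0.57 in NY1DD, against 0.43, 0.32 and 0.14 in C57BL/6J. NY1DD replicate 3 was opposite in sign to the other 5. Vamp4, a SNARE of the trans-Golgi network and endosomes, and its relative Vamp5 ranged from -0.26 to 0.54 in NY1DD and from -0.34 to 0.45 in C57BL/6J.

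Among the syntaxins and the SNAP-25 family, 8 of 10 genes were positive in NY1DD (median 0.10) and 9 of 10 in C57BL/6J (median 0.12). The medians were 0.04 in NY1DD without NY1DD replicate 2 and 0.08 in C57BL/6J without C57BL/6J replicate 2. Snap25, the target membrane SNARE cleaved by botulinum toxin A, was read by 3 probes. Averaged over these probes it had 0.23, 0.03 and 0.30 in NY1DD, against 0.83, 0.28 and 0.81 in C57BL/6J. Every array was above 0, and the lowest C57BL/6J array lay within the NY1DD range. In C57BL/6J its mean was 0.64 ± 0.16 (SE), a 1.56-fold ratio, with an unadjusted p of 0.00483 and an adjusted p of 0.287 in limma. The NY1DD mean was 0.19 ± 0.16, and the difference of -0.45 ± 0.23 had an unadjusted p of 0.0834 and an adjusted p of 0.969. The 3 probes gave means of 0.12, 0.21 and 0.23 in NY1DD, and 0.66, 0.70 and 0.57 in C57BL/6J, so they ordered the strains alike. Over 13 alternative settings for the C57BL/6J mean, the unadjusted p of Snap25 ran from 0.00319 to 0.0361 and its adjusted p from 0.172 to 0.952.

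Snap29, a SNAP-25 relative of intracellular membranes, had -0.27, 0.73 and 0.30 in NY1DD, against 1.55, 0.37 and 0.01 in C57BL/6J. A single C57BL/6J array carried most of its mean of 0.65 ± 0.31. Stx1a, the neuronal plasma membrane syntaxin, had 0.37, -0.11 and -0.30 in NY1DD, against -0.04, 0.15 and 0.05 in C57BL/6J, with both signs in each strain. Stx16, a syntaxin of the trans-Golgi network, had -0.40, 1.93 and 0.55 in NY1DD, against 0.40, 0.60 and -0.36 in C57BL/6J. Its NY1DD mean of 0.69 ± 0.41 was 0.07 without the second NY1DD array. Stx7, an endosomal syntaxin, covered the widest range of the remaining syntaxins in C57BL/6J, -0.65 to 0.93.

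The synaptotagmins, complexins and syntaxin-binding proteins comprised 16 genes, of which 11 were positive in NY1DD (median 0.07) and 10 in C57BL/6J (median 0.04). Neither sign held with each array left out: the NY1DD median was -0.02, with 7 of 15 genes positive, without NY1DD replicate 2. The C57BL/6J median was -0.02, with 6 of 15 positive, without C57BL/6J replicate 3, and it was 0.02 without replicate 1 and 0.07 without replicate 2. Syt1, the fast calcium sensor of transmitter release, had -0.32, -0.20 and 0.16 in NY1DD, against 0.19, -0.26 and 0.43 in C57BL/6J. Both strains held both signs. Cplx1 had 0.28, 0.35 and -0.02 in NY1DD, against 0.0085, 0.26 and 0.0048 in C57BL/6J. Cplx2, its close relative, had -0.03, -0.37 and -0.08 in NY1DD, against 0.10, -0.37 and 0.33 in C57BL/6J. The means of the complexins thus lay on opposite sides of 0 in NY1DD, with overlapping strains for each.

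Syt2, a calcium sensor of fast hindbrain and spinal synapses, had 2 values per strain. They were 1.64 and -0.33 in NY1DD, against -0.92 and -1.23 in C57BL/6J. The NY1DD values lay above the C57BL/6J values but were far apart from each other. The difference of 1.73 ± 0.67 (SE) had an unadjusted p of 0.0473 and an adjusted p of 0.969 in limma, and with values at the lower limit of the table kept it was 3.60 with an unadjusted p of 0.108. Syt7, a slow calcium sensor read by 3 probes, had 0.50, 0.31 and 0.04 in NY1DD, against -0.0030, -0.13 and 0.02 in C57BL/6J. Its NY1DD arrays lay above its C57BL/6J arrays, but the difference of 0.32 ± 0.20 had an adjusted p of 0.969, and its probes gave NY1DD means of 0.48, 0.41 and -0.05. Syt17, a relative without the transmembrane anchor of the vesicle synaptotagmins, had -0.77, -0.73 and 0.19 in NY1DD, against -0.24, -0.17 and -0.06 in C57BL/6J. Its NY1DD mean of -0.44 ± 0.21 was the lowest of the 68 genes and had an adjusted p of 0.592. The only Syt17 probe lay in plate column 12, whose median over probes was -0.47 on NY1DD replicate 2. Syt9 showed how far 1 array could stand out, with -0.11, 1.94 and -0.21 in NY1DD, against 0.09, 0.21 and 0.22 in C57BL/6J.

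In a count over the 68 genes, every NY1DD array lay above every C57BL/6J array for 2, Syt2 and Syt7, against 5.62% of all features. Every NY1DD array lay below every C57BL/6J array for 2, Rab31 and Atp6v1a, against 4.58% of all features. These shares were below the background. None of the 68 genes passed 1.5-fold above 0 on every array of NY1DD (0.382% of all features) or of C57BL/6J (0.207%). None passed 1.5-fold below 0 on every NY1DD array (0.589%), and 1, Syt2, did so on its C57BL/6J arrays (1.01%).

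The vesicle coat and glycoproteins were positive for 5 of 6 genes in NY1DD (median 0.15) and 6 of 6 in C57BL/6J (median 0.16). The NY1DD median was 0.06 without NY1DD replicate 1 and 0.27 without NY1DD replicate 3, and the C57BL/6J median was 0.04, with 4 of 6 positive, without C57BL/6J replicate 1. Syn1, synapsin I, tethers vesicles to the actin cytoskeleton in the reserve pool. Read by 1 probe only, it had 1.33, 0.04 and 1.80 in NY1DD, against -0.0045, 0.96 and 0.33 in C57BL/6J. Each strain held a value near 0 and at least 1 value well above it, and the strains overlapped. Its NY1DD mean was 1.06 ± 0.34 (SE), a 2.08-fold ratio with an SD of 0.91, and had an unadjusted p of 0.0165 and an adjusted p of 0.535 in limma. The NY1DD mean was 0.92 without replicate 1, 1.56 without replicate 2 and 0.68 without replicate 3. In C57BL/6J the mean was 0.43 ± 0.34, and the difference of 0.63 ± 0.48 had an unadjusted p of 0.23.

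The other synapsins were closer to 0. Syn2 had 0.21, -0.12 and 0.23 in NY1DD, against 0.27, -0.04 and 0.13 in C57BL/6J. Syp, synaptophysin, the most used marker protein of synaptic vesicles, had 0.31, 0.05 and 0.09 in NY1DD, against 0.29, -0.20 and 0.20 in C57BL/6J. The strains overlapped for both. Sv2a, a vesicle glycoprotein and the binding site of the antiseizure drug levetiracetam, had -0.05, 0.88 and -0.15 in NY1DD, against 0.64, 0.23 and -0.27 in C57BL/6J, with both signs in each strain.

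The genes of the Rab3 prefix, with Rims1, were evenly divided: 5 of 9 were positive in NY1DD (median 0.02) and 5 of 9 in C57BL/6J (median 0.01). Over the alternative settings these medians lay on both sides of 0, from -0.05 to 0.05 in NY1DD and from -0.07 to 0.11 in C57BL/6J. Rab3a, the GTPase on synaptic vesicles, had 0.58, -0.11 and 0.28 in NY1DD, against 0.39, 0.32 and 0.16 in C57BL/6J. It was positive on 5 of 6 arrays, and its average over the strains was 0.27 ± 0.12 (SE) with an unadjusted p of 0.0526 and an adjusted p of 0.467. Rims1, an active zone scaffold that binds Rab3, had 0.48 and -1.02 on its measured NY1DD arrays, against 0.07, -0.56 and 0.08 in C57BL/6J. Rab3c, a relative of Rab3a on vesicles, had -0.18, 0.07 and -0.12 in NY1DD, against 0.26, -0.0040 and 0.33 in C57BL/6J. Its strains overlapped, and the difference was -0.27 ± 0.20 with an adjusted p of 0.969.

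Rab33a, a GTPase outside the Rab3 subfamily, had the highest C57BL/6J mean of the 68 genes. Read by 1 probe only, it had 2.03 and 0.05 in NY1DD, against 0.33, 2.39 and 1.60 in C57BL/6J. The measured arrays of each strain lay far apart, and the strains overlapped. The C57BL/6J mean of 1.44 ± 0.49 (SE) had an unadjusted p of 0.0257 and an adjusted p of 0.589 in limma, and was 0.96 without the second C57BL/6J array. Rab31, a GTPase of the Golgi and endosomes, had -0.06, -0.13 and -0.18 in NY1DD, against 0.14, 0.05 and 0.32 in C57BL/6J. The strains lay on opposite sides of 0, and the difference of -0.29 ± 0.18 had an unadjusted p of 0.154 and an adjusted p of 0.969.

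For NSF and its adaptors, 2 of 4 genes were positive in NY1DD (median 0.01) and 3 of 4 in C57BL/6J (median 0.12). Leaving out single arrays gave medians on both sides of 0, from -0.09 to 0.136 in NY1DD and from -0.0084 to 0.18 in C57BL/6J. Nsf had 0.39, -0.64 and 0.34 in NY1DD, against 0.23, 0.26 and 0.13 in C57BL/6J, and only its second NY1DD array was below 0. On that array 1 Nsf probe read -1.18 in plate column 6, whose median there was -0.45, and the other read -0.10. Napa, alpha-SNAP, had -0.17, 0.02 and 0.15 in NY1DD, against -0.14, 0.03 and -0.38 in C57BL/6J. Napb, beta-SNAP, the brain form, had -0.11, -0.09 and -0.08 in NY1DD, against -0.10, 0.18 and 0.45 in C57BL/6J. Its NY1DD arrays were close together, and 1 C57BL/6J array lay among them.

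For the AP-2 adaptor, dynamin and Snap91, 3 of 5 genes were positive in each strain, with medians of 0.0018 in NY1DD and 0.0027 in C57BL/6J. Over the alternative settings the medians lay on both sides of 0, from -0.02 to 0.08 in NY1DD and from -0.26 to 0.03 in C57BL/6J. Dnm1, neuronal dynamin, which pinches off endocytic vesicles, had -0.22, -0.16 and 0.27 in NY1DD, against -0.74, -0.25 and 0.23 in C57BL/6J. Ap2s1, the small AP-2 subunit, had 0.04, 0.11 and -0.15 in NY1DD, against -0.32, -0.13 and -0.29 in C57BL/6J. All C57BL/6J values of Ap2s1 were below 0, yet 1 of them was above the lowest NY1DD value, and the difference of 0.25 ± 0.19 had an unadjusted p of 0.22. Ap2a2, a large AP-2 subunit, held both its highest values on single arrays, 1.27 in NY1DD and 0.90 in C57BL/6J, with the other 4 below 0.

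The 14 proton pump subunits were split evenly in NY1DD, where 7 were positive with a median of -0.03, while 9 were positive in C57BL/6J with a median of 0.10. The other 54 genes had 37 positive in NY1DD (median 0.09) and 39 positive in C57BL/6J (median 0.08). By sector, V0 had 3 of 6 positive in NY1DD (median -0.02) and 4 of 6 in C57BL/6J (median 0.15). V1 had 4 of 8 positive in NY1DD (median -0.03) and 5 of 8 in C57BL/6J (median 0.06). No test compares these groups of genes, and the NY1DD median of the pump ran from -0.05 to 0.136 over the alternative settings, so its side of 0 was not fixed. The highest of these values was that without NY1DD replicate 2, and correction for plate position gave 0.02. The C57BL/6J median of the pump was 0.06 without C57BL/6J replicate 2 and 0.05 without C57BL/6J replicate 3, and that of V1 was 0.0050 without C57BL/6J replicate 3.

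**Figure D3:**
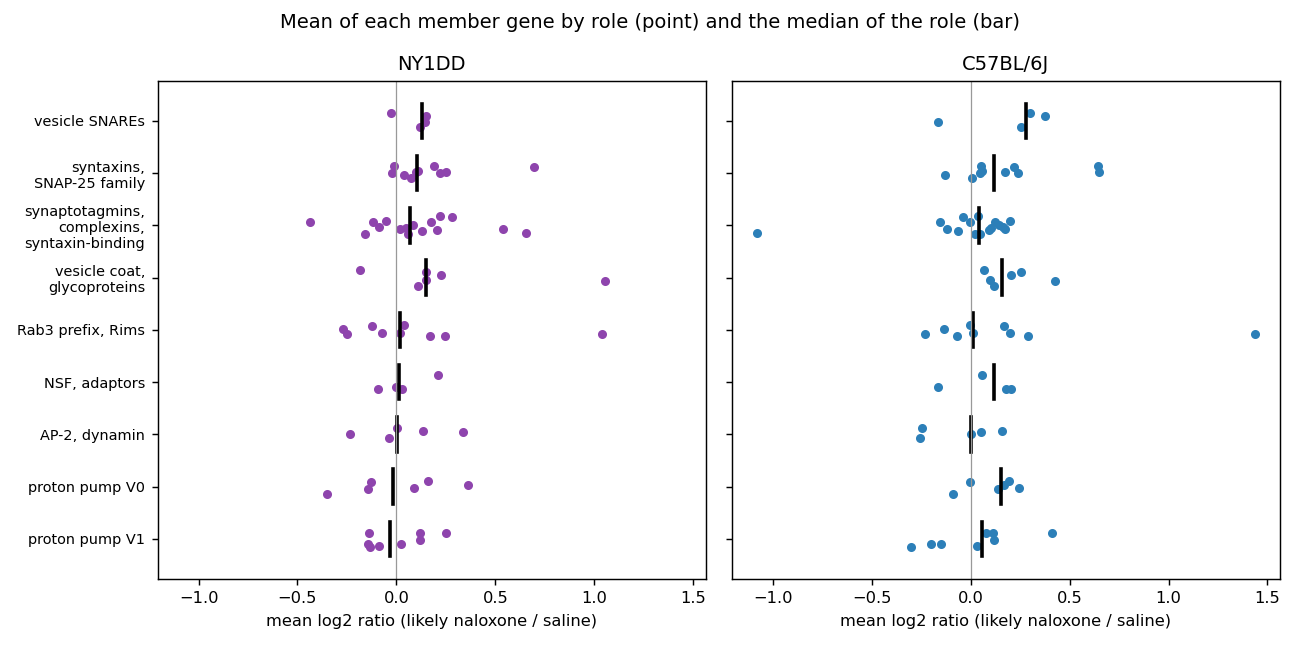
Mean log2 ratio (likely naloxone over saline) of each gene by role, as a point, in NY1DD (left) and C57BL/6J (right), with the median of the role as a bar. Medians run from -0.03 (V1) to 0.15 (vesicle coat and glycoproteins) in NY1DD, and from 0.0027 (AP-2 and dynamin) to 0.28 (vesicle SNAREs) in C57BL/6J, and points of every role overlap those of the others.

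Atp6v0d1, the V0 subunit that joins the rotor to the central stalk, was the highest pump subunit in NY1DD. It had 0.51, 0.10 and 0.48 in NY1DD, against 0.13, 0.20 and 0.19 in C57BL/6J. Averaged over its 2 probes, every array was above 0, and the lowest NY1DD array lay below the C57BL/6J range. On that array, NY1DD replicate 2, the probes had opposite signs, -0.41 and 0.61. The first lay in plate column 12, whose median there was -0.47. The NY1DD mean of 0.36 ± 0.14 (SE) had an unadjusted p of 0.0348 and an adjusted p of 0.579 in limma, and the C57BL/6J mean was 0.17 ± 0.14. Its probes gave 0.24 and 0.48 in NY1DD, and 0.16 and 0.18 in C57BL/6J. Atp6v0a1, the neuronal form of the large V0 subunit that lines the proton path, was the lowest in NY1DD, with -0.21, -0.18 and -0.67, against -0.02, 0.10 and -0.35 in C57BL/6J. The strains overlapped, and its NY1DD mean of -0.35 ± 0.16 had an adjusted p of 0.588. These subunits of one sector therefore had means of opposite sign in NY1DD. Probes annotated to both Tctn2 and Atp6v0a2, which were named for neither gene, had lower NY1DD means of -1.52 and -0.64. The first of these means came from arrays at -3.165 and 0.13. The probe of Atp6v0a2 alone gave -0.13.

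In the V1 sector, Atp6v1g2, the neuronal form of a stator subunit, was the highest pump subunit in C57BL/6J. It had 0.24, -0.34 and 0.46 in NY1DD, against 0.65, 0.43 and 0.16 in C57BL/6J, with a C57BL/6J mean of 0.41 ± 0.19 (SE) and an adjusted p of 0.767. Atp6v1e1, another stator subunit, was the lowest in C57BL/6J, with -0.51, 0.18 and -0.07 in NY1DD, against -0.44, -0.56 and 0.09 in C57BL/6J. Its strains overlapped and each held both signs. Atp6v1a, the catalytic subunit that hydrolyses ATP, had -0.05, -0.33 and -0.03 in NY1DD, against 0.0031, 0.06 and 0.17 in C57BL/6J. Its strains did not overlap, but most of its values lay close to 0, and the difference of -0.22 ± 0.19 had an adjusted p of 0.969.

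**Figure D4:**
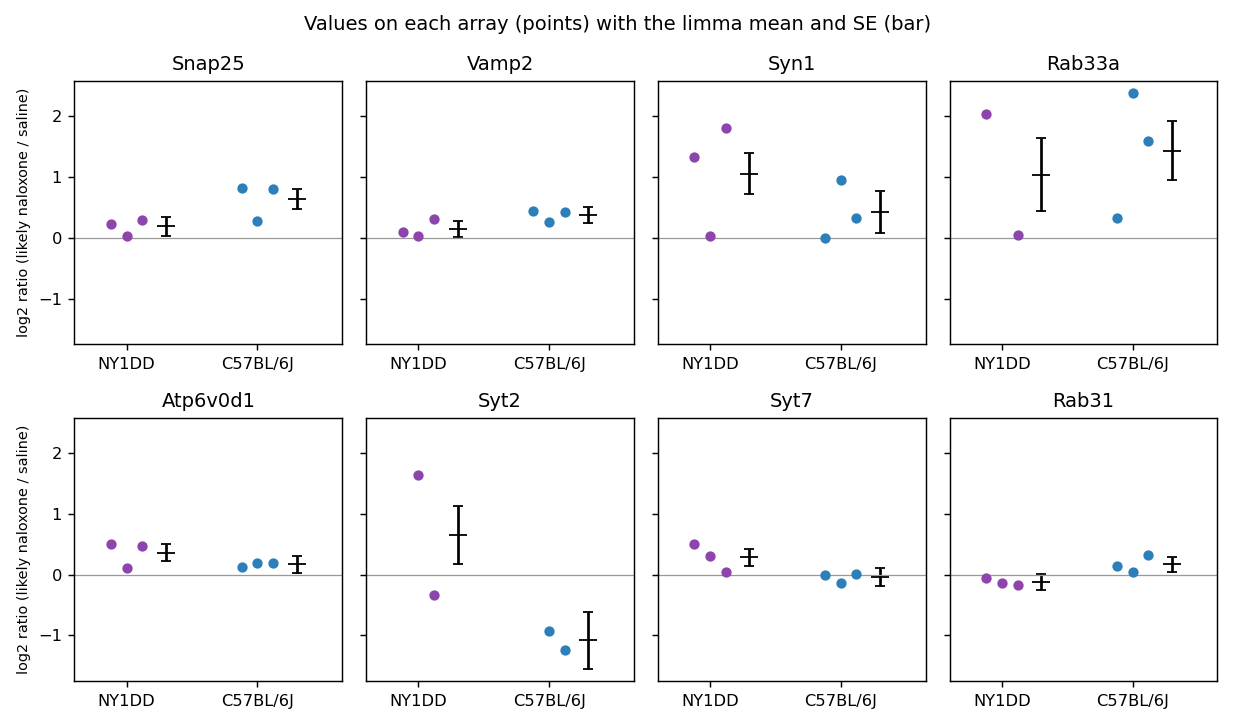
Log2 ratio (likely naloxone over saline) of 8 genes on each array (points, NY1DD left of C57BL/6J in each panel) with the limma mean and SE as a bar. Snap25, Vamp2 and Atp6v0d1 have all 6 points above 0, Syn1 and Rab33a spread over more than 1.5 log2 units within NY1DD, and Rab31 has its NY1DD points below 0 and its C57BL/6J points above 0.

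Several probes read 17 of the 68 genes. Their probes disagreed in the sign of the NY1DD mean for 9 of these 17 genes, 52.9%, against 52.9% of the other genes with several probes, and likewise for 9 of 17 in C57BL/6J, against 56.0%. Snap25 and Atp6v0d1 were among those whose probe means had 1 sign in both strains, although probes of each differed in sign on NY1DD replicate 2.

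Promoter windows of 300 bases, mostly upstream of the annotated start and running a little past it, were available for 54 of the 68 genes, from RefSeq on GRCm38.p6. They were searched on both strands for the cyclic AMP response element TGACGTCA, a sequence bound by CREB, which opioid signalling acts on through cyclic AMP, for the E-box CACGTG bound by the lysosomal gene regulator TFEB among others, and for the GC box GGGCGG bound by Sp1. The first was present in 3 of 54 windows, those of Syn1, Ap2b1 and Napa, which is 5.56% against 2.03% of the 27025 genes with a window. The E-box was present in 11, 20.4%, against 8.09% of all genes, and 4 of those 11 were proton pump subunits, Atp6v0b, Atp6v0d1, Atp6v0e and Atp6v1a. The GC box was present in 41, 75.9%, against 38.2% of all genes. No motif contains another, although matches can overlap at their ends, and a match is a description of letters and not a binding site. The background was every gene with a window, on the array or not. The share among the other array genes was not computed, so these shares show no trait particular to the 68 genes.

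The windows below are those of the genes with an unadjusted p under 0.05 in the average of the strains that had an entry. They are written 5′ to 3′ on the strand of the gene, with a matched motif in capitals. Syn1 lies at chrX:20920869-20921168 on the minus strand, with the cyclic AMP element starting at position -159 relative to the start. Atp6v0d1 lies at chr8:105566015-105566314 on the minus strand, with the E-box starting at position -3. Rab33a lies at chrX:48519035-48519334 on the plus strand and held none of the motifs in this window.
Syn1: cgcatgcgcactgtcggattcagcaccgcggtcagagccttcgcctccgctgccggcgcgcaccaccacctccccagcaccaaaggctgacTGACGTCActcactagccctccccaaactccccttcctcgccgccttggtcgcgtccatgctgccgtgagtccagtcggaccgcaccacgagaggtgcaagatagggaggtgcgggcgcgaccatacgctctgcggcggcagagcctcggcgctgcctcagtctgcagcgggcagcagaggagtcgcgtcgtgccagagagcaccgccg
Atp6v0d1: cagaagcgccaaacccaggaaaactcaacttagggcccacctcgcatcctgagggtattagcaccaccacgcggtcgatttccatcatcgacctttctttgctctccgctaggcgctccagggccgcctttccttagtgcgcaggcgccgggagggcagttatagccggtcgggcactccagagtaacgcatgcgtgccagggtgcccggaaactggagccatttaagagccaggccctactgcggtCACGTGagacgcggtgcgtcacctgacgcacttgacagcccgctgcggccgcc
Rab33a: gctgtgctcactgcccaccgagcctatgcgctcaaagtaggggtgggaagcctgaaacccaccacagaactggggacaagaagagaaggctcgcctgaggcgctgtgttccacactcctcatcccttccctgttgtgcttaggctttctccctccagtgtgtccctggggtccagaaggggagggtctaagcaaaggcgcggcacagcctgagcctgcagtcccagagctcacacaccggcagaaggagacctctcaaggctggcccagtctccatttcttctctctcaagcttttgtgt
These windows were chosen by the unadjusted p of their genes in the same data, and a link between a motif and the ratios was not tested.

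Of 99 other genes of the release and recycling pathway, 66 were measured. In NY1DD 34 had a positive mean (median 0.02), and in C57BL/6J 37 did (median 0.04). None passed an adjusted p of 0.05 in limma. At an unadjusted p under 0.05, 0 were positive and 3 negative in NY1DD, where 3.46% and 4.89% of all features were. In C57BL/6J 2 were positive and 0 negative, where 1.76% and 5.17% of all features were. For the difference 0 were positive and 3 negative, where 2.75% and 1.76% of all features were. Counts this small are given as a description. Gak, the cyclin G kinase that helps strip clathrin from vesicles, had -1.03, -0.66 and -0.84 in NY1DD, against -0.14, -0.22 and 0.57 in C57BL/6J. Every NY1DD array lay below every C57BL/6J array, and the difference of -0.91 ± 0.27 (SE) had an unadjusted p of 0.0105 and an adjusted p of 0.969. Cadps, a priming factor of dense-core vesicles, had 0.28, 0.53 and 0.26 in NY1DD, against 1.07, 1.01 and -0.05 in C57BL/6J. Its C57BL/6J mean of 0.68 ± 0.23 had an adjusted p of 0.549. Synj1, synaptojanin, which uncoats endocytic vesicles, had -0.36, 0.02 and -0.02 in NY1DD, against 0.55, 0.38 and 0.19 in C57BL/6J. The strains did not overlap, and the difference of -0.49 ± 0.21 had an adjusted p of 0.969. Among all features, NY1DD lay wholly below C57BL/6J in 4.58% and wholly above it in 5.62%. Other pathway genes were also separated, Tpd52, Atp6ap2, Dnajc5 and Epn2 with NY1DD lower, and Atp6ap1, Bet1l and Doc2a with NY1DD higher. Gak and Synj1 were named after their values were seen, so their separation is a description only.

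Marker genes of brain cell types were read beside these genes. Of 16 neuron markers, which include Snap25 and Syt1, 11 had a positive mean in NY1DD (median 0.09) and 9 in C57BL/6J (median 0.03). By array their median was 0.22, -0.01 and 0.09 in NY1DD, and -0.05, -0.01 and -0.03 in C57BL/6J. Among 7 measured astrocyte markers 1 was positive in NY1DD (median -0.11) and 4 in C57BL/6J (median 0.07), and among 10 oligodendrocyte markers 7 were positive in NY1DD (median 0.13) and 7 in C57BL/6J (median 0.03). Both measured choroid plexus markers were positive in each strain, with medians of 0.35 in NY1DD and 0.46 in C57BL/6J. At an unadjusted limma p under 0.05, 1 choroid plexus marker and 1 neuron marker passed as positive in each strain. For microglia 1 passed as positive in NY1DD and 1 as negative in C57BL/6J. Of all features, 3.46% passed as positive in NY1DD, with 1.76% as positive and 5.17% as negative in C57BL/6J. Of 6 endothelial and mural markers 4 were positive in NY1DD (median 0.05) and 4 in C57BL/6J (median 0.03), and of 3 microglial markers 2 were positive in NY1DD (median 0.0027) and 1 in C57BL/6J (median -0.0050). Of 2 pituitary markers 1 was positive in each strain, and the 1 measured blood marker was -0.07 in NY1DD and -0.15 in C57BL/6J. Their part in the ratios of the synaptic genes was not tested. Over the 9175 features with values on all 6 arrays, Pearson correlations were 0.00919 to 0.191 between NY1DD arrays and 0.138 to 0.159 between C57BL/6J arrays. Between arrays of different strains they were -0.069 to 0.184. Replicate arrays thus shared little of their variation.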

How the data were processed

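Per the labels' protocols, brain RNA was extracted with TRIzol and labelled directly, naloxone in Cy5 and saline in Cy3. The deposited values were natural log ratios, one per spot and array, a scale read from their lower limit; for the scanner, background correction and normalization the entry is: not given in the sources used here. Signal over background is unknown without intensities, and the number of arrays limits the precision.

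Of 11532 spots, 30 controls were left out. Values at the lower limit of the table (a ratio of 0.01, 293 values) were treated as missing. The deposited natural logs were converted to log2, the median of each array was subtracted, and the 11340 probes measured on 2 or more arrays per strain were kept. Probes with 1 symbol were averaged per gene, which gave 9685 features, and probes with several symbols, 4 of which included a gene of this family, were named for none. Symbols came from the platform annotation, and 68 of 68 genes matched RefSeq by gene number.

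The test was limma 3.58.1 in R 4.3.3, with a mean per strain over all 6 arrays, two-sided, and Benjamini-Hochberg adjustment over all features. It was tested on simulated data with known changes. The residual degrees of freedom were 4 and the prior degrees of freedom 3.13. Values on every array are given for the 6 genes with the smallest unadjusted p in each of 4 comparisons, for the core neuronal fusion genes measured, and for the highest and lowest pump subunit of each strain. Vamp4, Vamp5, Stx7, Syt9, Ap2a2, Atp6v1a, Gak, Cadps and Synj1 were named after their values were seen. The genes and lists were chosen with earlier results of these data known. Alternatives covered the lower limit, centring, spread, missing values, probe averaging, plate position, the replicate number as a block and each array left out.

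Replicate numbers occur in both strains, and deviations of same-numbered arrays correlated at -0.0704, 0.0566 and 0.0203, so the numbers were not taken as pairs.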

Additional observations from a re-analysis of the deposited data

Results flagged for a closer look

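In Atp6v1a, the catalytic subunit of the proton pump, every NY1DD array was below 0 and every C57BL/6J array above 0. The NY1DD minus C57BL/6J difference was -0.22 on the log2 scale, and limma gave it an adjusted p of 0.969. In Rab31, a GTPase of the Golgi and endosomes, the arrays were divided in the same way, with a difference of -0.29 and an adjusted p of 0.969 in limma. For all features, every NY1DD array lay below every C57BL/6J array, whatever the side of 0, in 4.58%. For the 68 genes this share was 2.94%, below that of all features, so the separation of these genes is a description only.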

How the results depend on the processing

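No gene of the 68 and no feature passed an adjusted p of 0.05 in limma in any alternative, and the count of positive genes stayed within 1.5 times its value in each. The median of the 68 NY1DD means, 0.08, was 0.11 without centring, where the median of all features was 0.02, and ran from 0.049 to 0.078 with single arrays left out; it was 0.049 without the second NY1DD array. With the replicate number as a block, which the data do not show to pair the arrays, 0 genes passed and the medians were -0.02 for the difference and 0.07 for the average of the strains. The average of Atp6v0d1 then had an unadjusted p of 0.0592. Alternatives were run on the unadjusted p of the 6 genes with the smallest one in each comparison; of these values 269 were on the same side of 0.05, 24 were no longer under it and 13 came under it. Syt7 in NY1DD turned sign with the median of its probes, to -0.03 with an unadjusted p of 0.845, since its 3 probes disagree. Unadjusted p-values under 0.05 were found in 11 of 13 alternatives for Syn1 in NY1DD, 9 of 13 for Atp6v0d1 in NY1DD, 11 of 13 for Vamp2 in C57BL/6J and 8 of 10 for Rab33a in C57BL/6J. Dye, and any effect of the unexplained title numbers, could not be separated with these arrays.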

Other observations

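Fewer of the 68 genes than of the other genes passed 1.5-fold on single arrays. The share of them past 1.5-fold in either direction was 7.58%, 10.4% and 4.41% on the NY1DD arrays, against 21.4%, 19.2% and 11.2% of the other genes. On the C57BL/6J arrays it was 7.46%, 8.82% and 8.82% of the 68 genes, against 8.59%, 10.1% and 14.4% of the other genes. The share was below that of the other genes on all 6 arrays, but close to it on C57BL/6J replicates 1 and 2 (5 of 67 and 6 of 68 genes). The share over all features was not computed, and no test was run. The other 66 measured genes of the release and recycling pathway had 15.4%, 15.2% and 3.03% past 1.5-fold in NY1DD, with 10.6%, 7.58% and 9.09% in C57BL/6J, below the other genes on 5 of 6 arrays, so a low share was not particular to the 68.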
